A study of Mus musculus with 20 samples.

Results

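The 40 genes described here encode proteins of the synaptic vesicle and of the machinery that docks, primes and fuses it at the presynaptic membrane. They were chosen by symbol, with earlier results of these data known. They comprise 8 calcium-sensing synaptotagmins, 5 other synaptotagmins, 3 synapsins, 6 vesicle membrane proteins of the SV2, synaptophysin and synaptogyrin families, 2 vesicular glutamate transporters, 4 genes of the Rab3 and rabphilin group, 5 active zone scaffolds (RIM, Bassoon and Piccolo), 3 Munc13 genes, and 4 genes for complexins and NSF. All 40 symbols were found among the 23412 gene symbols of the hippocampus and of the amygdala expression table.

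Whole hippocampus and amygdala were taken from mice on postnatal day 21 and their RNA was sequenced. Each tissue had 3 NCoR1-KO, 3 SMRT-KO and 4 control libraries, 20 in all. The knockouts carry Snap25-IRES2-cre, a pan-neuronal Cre driver read from the Snap25 locus, with floxed alleles of NCoR1 or of SMRT, corepressors that nuclear receptors recruit to silence their target genes. Whole tissue was extracted, so RNA of glia and vessels, outside the driver's reach, is part of every library. The labels do not say whether the controls carry Cre or floxed alleles, nor whether 1 animal gave 1 library. All p-values therefore measure the spread between these libraries, which may be in part technical.

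In a nerve terminal, vesicles are loaded with glutamate by vesicular transporters and are held in a reserve pool by synapsins. Rab3 proteins and their effectors, the RIM proteins and the scaffolds Bassoon and Piccolo bring vesicles to the active zone, where Munc13 proteins prime them by helping the SNARE proteins assemble. Complexins hold the assembled SNAREs in check, calcium-binding synaptotagmins trigger fusion when calcium enters, and the ATPase NSF takes the used SNARE complexes apart. Most of these proteins belong to families whose members are used by different neurons, so the family member expressed differs between brain regions.

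The deposited values are TPM, which divides by transcript length and by the library's total, so that levels can be set against each other between genes. Depth is unknown. Between 13787 and 14509 genes reached 1 TPM in a library. Ncor1 lay at 41.9, 44.5 and 61.1 TPM in the NCoR1-KO hippocampus libraries, against 81.6 to 137 TPM in hippocampus controls, and at 32.1, 34.6 and 39 TPM in the NCoR1-KO amygdala libraries, against 71.3 to 127 TPM in amygdala controls. Snap25, the gene that holds the Cre driver, lay at 1257 to 1346 TPM in the hippocampus of NCoR1-KO and at 1090 to 1699 TPM in that of SMRT-KO, against 2204 to 2329 TPM in hippocampus controls. In amygdala Snap25 lay at 1123 to 1228 TPM in the NCoR1-KO libraries and 1053 to 1207 TPM in the SMRT-KO libraries, against 1825 to 2228 TPM in controls. Every knockout library thus had less Snap25 than every control. Both knockouts carry the driver, and the labels do not say whether the controls do. In differences from control, the driver allele, the lower Snap25 and the loss of NCoR1 or SMRT can therefore not be told apart. The tissue labels fit part of their marker lists. The 9 dentate gyrus markers overlapped between the tissues, at sums of 470 to 575 TPM in control hippocampus and 404 to 637 TPM in control amygdala, although 5 of the 8 tested were higher and 2 lower in hippocampus. The 9 CA field markers summed to 650 to 707 TPM in control hippocampus and 326 to 377 TPM in control amygdala. Of 9 markers of amygdala nuclei, 4 were lower and 1 was higher in control hippocampus than in control amygdala at an adjusted p under 0.05, and their sums did not overlap (278 to 416 TPM in hippocampus, 430 to 528 TPM in amygdala).

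SMRT-KO replicate 2 of the hippocampus stood apart from the other 9 libraries of that tissue. Its 10 thalamus markers summed to 894 TPM, against 115 to 276 TPM in the others, and its 10 oligodendrocyte markers to 28238 TPM, against 9772 to 20186 TPM. It held the lowest hippocampus value for 19 of the 40 release genes and the highest for 8. SMRT-KO replicate 3 held the highest for 18 and the lowest for 7. The choroid plexus markers were highest in NCoR1-KO replicate 3, at 11614 TPM, against 32.9 to 5805 TPM in the other hippocampus libraries. Genotype differences named for the SMRT-KO hippocampus are given below with and without replicate 2.

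All 40 genes passed the filter on low values, 1 TPM in 3 or more libraries of a tissue, and were tested in both tissues. Syp, which encodes the vesicle membrane protein synaptophysin, was the highest on the TPM scale, at 1438 ± 113 TPM in hippocampus and 1698 ± 95 TPM in amygdala (SD, n = 4 each). Slc17a7, the glutamate transporter VGLUT1, and Syt1, the main fast calcium sensor of forebrain synapses, followed in both tissues at mean levels of 1341 and 1087 TPM in hippocampus, and of 1306 and 1051 TPM in amygdala. The lowest levels belonged to Cplx3 in hippocampus, at 3 ± 2.59 TPM, and to Syt2 in amygdala, at 8.53 ± 6.62 TPM. Some neighbours in the order lay closer than their spread, such as Syngr1 (336 ± 26.2 TPM) and Sv2b (329 ± 39.6 TPM) in hippocampus. In amygdala Sv2a (336 ± 11.6 TPM) and Sv2b (327 ± 51.9 TPM) did too.

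In several families 1 member made up most of the family's TPM. Syt1 was 97.9% to 98.7% of the summed TPM of the fast sensors Syt1, Syt2 and Syt9 in control hippocampus and 96.1% to 98.1% in control amygdala. Slc17a7 was 98.4% to 99.4% of both glutamate transporters in control hippocampus, and 94% to 97.3% in control amygdala. Rab3a made up 74.7% to 77.4% of the 3 Rab3 genes in control hippocampus and 69.9% to 74.1% in control amygdala. In the Munc13 family the shares of Unc13a and Unc13c did not overlap between the tissues, and those of Unc13b did (11.6% to 13.3% in control hippocampus, 11.1% to 12% in control amygdala). Unc13c, a member best known from the cerebellum, was 2.92% to 6.89% of the family in control hippocampus and 14.7% to 25.4% in control amygdala, while Unc13a, the main Munc13 of forebrain glutamate synapses, was 81.5% to 84.9% in hippocampus and 63.5% to 73.8% in amygdala. The 40 genes together summed to 11114 to 12606 TPM in control hippocampus and 12145 to 13845 TPM in control amygdala, an average of 1.2% and 1.29% of all TPM.

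The first question was which release genes differ when NCoR1 or SMRT is missing from neurons. In the amygdala some differed between the knockouts, but none differed from control past the test. Between the NCoR1-KO and the SMRT-KO amygdala 10 of the 40 release genes differed at an adjusted p under 0.05, 4 higher in NCoR1-KO and 6 lower. Over all genes tested 1679 of 14606 (11.5%) did, 5.03% higher in NCoR1-KO and 6.46% lower. Against control no release gene passed the test in either knockout, and the values of all 3 genotypes are therefore given side by side. In bulk tissue, fewer cells of a type and less RNA per cell cannot be told apart.

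Pclo encodes Piccolo, a giant scaffold that organises the vesicle pool at the active zone. It lay at 47.5, 49.2 and 60.4 TPM in NCoR1-KO amygdala, at 88.8, 73.3 and 79.2 TPM in SMRT-KO amygdala, and at 60.4, 65.9, 74.7 and 64.8 TPM in controls. The NCoR1-KO libraries were below all SMRT-KO libraries, and controls lay between, touching or overlapping both. The difference was -0.61 ± 0.11 on the log2(TPM + 1) scale between NCoR1-KO and SMRT-KO (standard error, n = 3 each, limma adjusted p = 0.00943). Pclo is the only 1 of the 10 genes that stayed past the threshold whichever amygdala library was left out (adjusted p 0.00796 to 0.0438).

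The glutamate transporter VGLUT2, encoded by Slc17a6 and used mainly by thalamic and other subcortical neurons, went the opposite way. Slc17a6 had 58.4, 70.2 and 66.5 TPM in NCoR1-KO amygdala, 42.6, 36.5 and 39 TPM in SMRT-KO amygdala, and 45.6, 49.7, 63.3 and 42.9 TPM in controls. The knockouts did not overlap, and all 3 SMRT-KO libraries lay below every control. The log2 difference between NCoR1-KO and SMRT-KO was 0.71 ± 0.13 (adjusted p = 0.0115). Slc17a7 (VGLUT1), at 1246 to 1488 TPM in NCoR1-KO libraries and 1282 to 1340 TPM in SMRT-KO amygdala, overlapped between the knockouts.

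Among the synaptotagmins, 4 differed between the knockouts. Syt2, a fast calcium sensor of inhibitory and hindbrain synapses, had 7.64, 5.05 and 5.8 TPM in NCoR1-KO amygdala, 16.9, 34.6 and 23.7 TPM in SMRT-KO amygdala, and 5.91, 3.16, 18.2 and 6.88 TPM in controls. Control replicate 3 lay within the SMRT-KO range and the other 3 controls near the NCoR1-KO values. Syt6, a calcium-binding synaptotagmin, had 15.1, 11.2 and 11.8 TPM in NCoR1-KO libraries, 22.7, 28.8 and 30.7 TPM in SMRT-KO and 13.3, 9.14, 19.3 and 13.1 TPM in control amygdala. Syt12, which lacks the residues that bind calcium, had 22.2, 18.7 and 20.1 TPM in NCoR1-KO libraries, 23.5, 32.6 and 30.8 TPM in SMRT-KO and 20.1, 18.8, 19.7 and 18.9 TPM in controls. For Syt6 and Syt12 every SMRT-KO library lay above every NCoR1-KO and control library. The log2 differences between NCoR1-KO and SMRT-KO were -1.82 ± 0.45 for Syt2 (adjusted p = 0.0302), -1.05 ± 0.21 for Syt6 (adjusted p = 0.0176) and -0.48 ± 0.11 for Syt12 (adjusted p = 0.0246). Syt5 was the exception to this direction, with 216, 226 and 206 TPM in NCoR1-KO libraries, 173, 154 and 176 TPM in SMRT-KO and 185, 211, 186 and 195 TPM in control amygdala. Its SMRT-KO libraries were below all others, and its log2 difference between the knockouts was 0.37 ± 0.07 (adjusted p = 0.013).

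The other calls were on vesicle membrane proteins, a Rab3 effector and a complexin. Sv2a, a vesicle glycoprotein, had 368, 382 and 377 TPM in NCoR1-KO libraries, 329, 344 and 328 TPM in SMRT-KO and 334, 324, 352 and 334 TPM in control amygdala. Syp had 1944, 1790 and 1861 TPM in NCoR1-KO libraries, 1623, 1610 and 1550 TPM in SMRT-KO and 1609, 1806, 1629 and 1749 TPM in controls. Both were higher in NCoR1-KO than in SMRT-KO by small steps that exceeded the spread, of 0.17 ± 0.04 for Sv2a (adjusted p = 0.0356) and 0.23 ± 0.06 for Syp (adjusted p = 0.0374) on the log2 scale. Rph3a encodes rabphilin, which binds Rab3 on the vesicle, and had 298, 257 and 268 TPM in NCoR1-KO libraries, 333, 381 and 343 TPM in SMRT-KO and 260, 237, 257 and 301 TPM in control amygdala. Cplx1, a complexin of fast synapses, had 431, 377 and 386 TPM in NCoR1-KO libraries, 461, 700 and 547 TPM in SMRT-KO and 386, 394, 462 and 438 TPM in controls. Rph3a was lower in NCoR1-KO than in SMRT-KO by a log2 difference of -0.36 ± 0.09 (limma adjusted p = 0.0307) and Cplx1 by -0.50 ± 0.13 (limma adjusted p = 0.0363). For Cplx1 SMRT-KO replicate 2 was the highest library of all 10. That library held the highest amygdala value for 9 of the 40 release genes and the lowest for 11. Syt2, Syt12, Rph3a and Cplx1 were among the 9, and Syt5 and Slc17a6 among the 11.

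**Figure D1:**
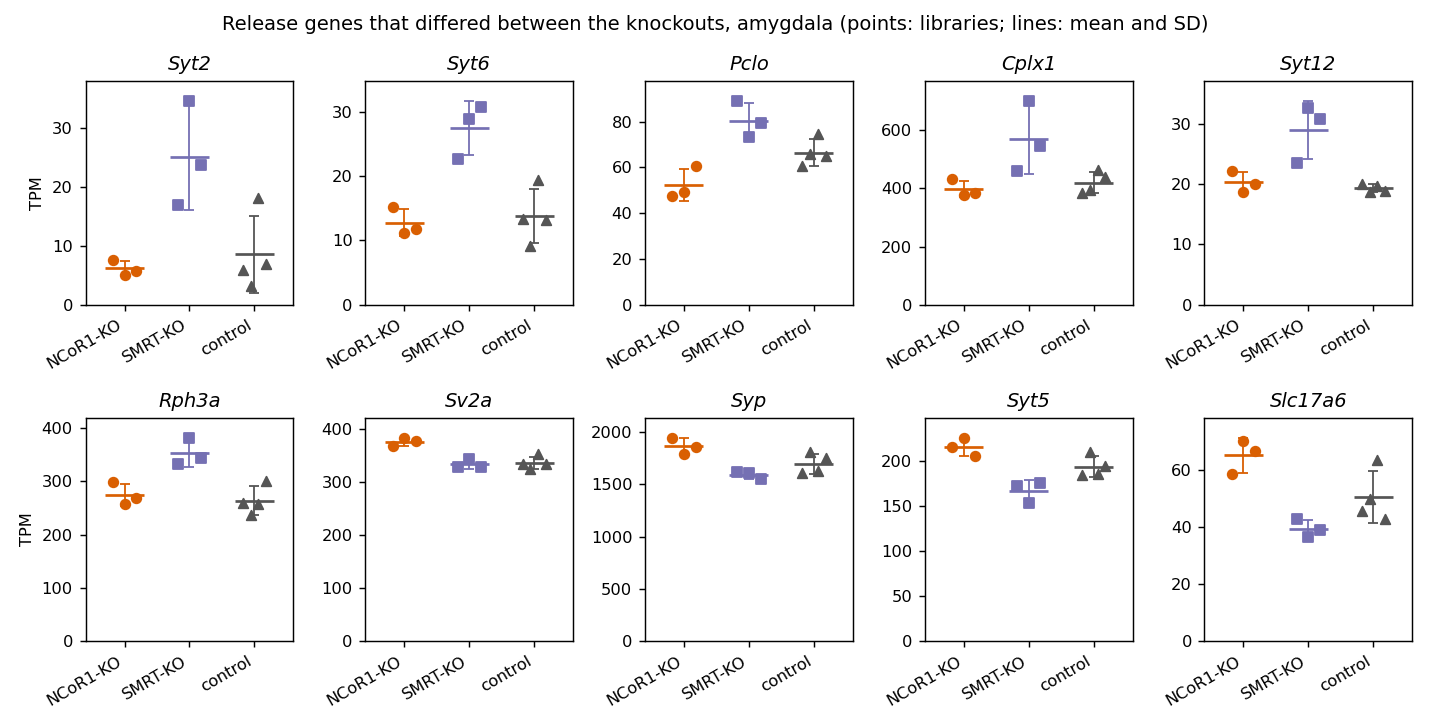
TPM (vertical axes, from 0) of the 10 release genes that differed between the knockouts in amygdala, with 1 point per library, a line at each group's mean and bars of 1 SD, for NCoR1-KO, SMRT-KO and control. In every panel the 3 NCoR1-KO points and the 3 SMRT-KO points do not overlap, and the control points overlap those of at least 1 knockout, as for Pclo at 60.4 to 74.7 TPM.

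Of the 30 release genes that did not pass between the knockouts, no Munc13 gene had an unadjusted p under 0.05, with log2 differences from -0.04 to 0.02. All 3 synapsins lay higher in NCoR1-KO than in SMRT-KO amygdala, Syn2 most, at 727 ± 51.5 TPM in NCoR1-KO libraries and 554 ± 105 TPM in SMRT-KO libraries (SD, n = 3 each, limma adjusted p = 0.0633). At an unadjusted p under 0.05, 13 of the 40 were higher in NCoR1-KO and 9 lower, against 15.2% and 15.9% of all genes (31.1% in all). Libraries of the knockouts did not overlap for 21 of the 40 genes, against 38.4% of all genes tested. The median log2 difference of the 40 genes was 0.05, against -0.00021 over all genes. Without NCoR1-KO replicate 2 only Pclo was called, and without SMRT-KO replicate 3 only Pclo and Syt5. Without SMRT-KO replicate 2 the calls were 3 (Pclo, Syt5 and Slc17a6), without NCoR1-KO replicate 3 they were 5, and without NCoR1-KO replicate 1 they were 6. With no variance trend they were 6 as well, and Sv2a, Syp, Rph3a and Cplx1 did not pass (limma adjusted p 0.0528 to 0.0697).

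Syt1, Cplx2, Bsn and Unc13a, picked after their values were seen, overlapped between all 3 genotypes in amygdala. Syt1 averaged 1121 ± 89.2 TPM in NCoR1-KO libraries, 1172 ± 65.7 TPM in SMRT-KO and 1051 ± 105 TPM in controls (SD, n = 3, 3 and 4). Cplx2, the most abundant complexin, averaged 901 ± 90.8 TPM in NCoR1-KO libraries, 957 ± 75.2 TPM in SMRT-KO and 976 ± 86.9 TPM in controls. Bsn, which encodes the scaffold Bassoon, averaged 125 ± 18.4 TPM in NCoR1-KO libraries, 120 ± 13.7 TPM in SMRT-KO and 124 ± 21.6 TPM in controls. Unc13a lay at 146 to 170 TPM in NCoR1-KO libraries, 150 to 152 TPM in SMRT-KO and 128 to 174 TPM in controls. Other genes came near the threshold between the knockouts without passing it. Rims1, the main RIM scaffold, averaged 262 ± 41.4 TPM in NCoR1-KO libraries, 345 ± 30.1 TPM in SMRT-KO and 292 ± 37.5 TPM in controls (limma adjusted p = 0.062 between the knockouts). Nsf averaged 860 ± 46.2 TPM in NCoR1-KO libraries, 740 ± 31.6 TPM in SMRT-KO and 765 ± 55.8 TPM in controls (limma adjusted p = 0.0654 between the knockouts). Syt13, a synaptotagmin that does not bind calcium, had 203 to 208 TPM in NCoR1-KO libraries, 169 to 191 TPM in SMRT-KO and 168 to 199 TPM in controls, so that its NCoR1-KO libraries lay above all others.

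Several marker lists of other cell types and of neighbouring regions also differed between the knockout libraries of the amygdala, and others overlapped. The 10 oligodendrocyte markers summed to 3883 to 5295 TPM in NCoR1-KO libraries and 7860 to 11822 TPM in SMRT-KO libraries, against 2677 to 9329 TPM in controls, and all 10 lay lower in NCoR1-KO, 1 of them past the test. The 9 cortical layer markers summed to 244 to 283 TPM in NCoR1-KO, 306 to 328 TPM in SMRT-KO and 239 to 274 TPM in controls. The 9 striatal markers summed to 673 to 1129 TPM in NCoR1-KO, 1149 to 1833 TPM in SMRT-KO and 488 to 1334 TPM in controls, and the 9 hypothalamic markers to 751 to 1151 TPM in NCoR1-KO, 350 to 722 TPM in SMRT-KO and 696 to 1114 TPM in controls. Of 10 thalamus markers 3 were lower and 1 was higher in NCoR1-KO than in SMRT-KO past the test. Of 10 microglia markers 7 were lower in NCoR1-KO than in SMRT-KO at an adjusted p under 0.05. The 10 astrocyte markers summed to 3260 to 3363 TPM in NCoR1-KO libraries, 3703 to 4271 TPM in SMRT-KO and 3723 to 4310 TPM in controls. The 10 endothelial and mural markers summed to 260 to 287 TPM in NCoR1-KO libraries, 332 to 378 TPM in SMRT-KO and 270 to 370 TPM in controls. The 8 excitatory neuron markers summed to 3979 to 4186 TPM in NCoR1-KO libraries, 4363 to 5156 TPM in SMRT-KO and 3423 to 4444 TPM in controls. The 11 pan-neuronal markers summed to 6824 to 7311 TPM in NCoR1-KO, 5997 to 6441 TPM in SMRT-KO and 6250 to 6813 TPM in controls. Markers of amygdala nuclei (9 genes) summed to 496 to 627 TPM in NCoR1-KO, 284 to 501 TPM in SMRT-KO and 430 to 528 TPM in controls. SMRT-KO replicates 2 and 3, at 284 and 345 TPM, lay below every control and NCoR1-KO library. Choroid plexus markers (8 genes) summed to 50.8 to 65.7 TPM in NCoR1-KO, 103 to 793 TPM in SMRT-KO and 24.7 to 1100 TPM in controls. Sums of GABAergic neuron markers overlapped between the knockouts, at 1808 to 2136 TPM in NCoR1-KO and 1801 to 1919 TPM in SMRT-KO. Those of thalamus markers (172 to 247 TPM and 185 to 207 TPM) did too. So did those of CA fields (352 to 359 TPM and 358 to 397 TPM) and dentate gyrus (444 to 578 TPM and 364 to 469 TPM). None of these lists had a defining marker at 0 in every library of all 3 groups, and Hcrt was at 0 in all NCoR1-KO libraries. Their part in the release gene differences was not tested.

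Set against control, no release gene passed the test in the SMRT-KO amygdala, and Rims3, Syt12, Rph3a and Syt6 came nearest, all on the higher side. Of the 40 genes 0 passed an adjusted p under 0.05 in limma, where 16 of all 14606 genes (0.11%) did, 0.0479% higher and 0.0616% lower in SMRT-KO. At an unadjusted p under 0.05, 14 of the 40 differed, against 22% of all genes. Of these 8 were higher in SMRT-KO (8.42% of all genes) and 6 lower (13.5% of all genes). The groups did not overlap for 9 of the 40, against 18% of all genes. The 5 with the smallest p were Rims3, Syt12, Rph3a, Syt6 and Syt2. Rims3 encodes a short RIM protein and had 53.7, 56 and 49.2 TPM in SMRT-KO, against 41.2, 40.1, 43.8 and 36.4 TPM in control amygdala. The groups did not overlap, with a log2 difference of 0.39 ± 0.07. Syt12, Rph3a and Syt6, whose libraries are given above, also did not overlap, with log2 differences of 0.54 ± 0.10, 0.42 ± 0.08 and 0.98 ± 0.20. For all 4 genes the adjusted p was 0.0572. Syt2 averaged 25 ± 8.94 TPM in SMRT-KO and 8.53 ± 6.62 TPM in controls (SD, n = 3 and 4), a log2 difference of 1.62 ± 0.42 (adjusted p = 0.0769), and overlapped at control replicate 3 alone. Cplx3, a complexin of ribbon synapses and of deep cortical neurons, had 18.4, 19.5 and 18.9 TPM in SMRT-KO, against 11.6, 7.49, 5.82 and 15.6 TPM in controls (log2 difference 0.93 ± 0.25, adjusted p = 0.0826). Its SMRT-KO libraries were close together and above every control. The genes on the other side at an unadjusted p under 0.05 were Syt5, Syt9, Slc17a6, Syn2, Syt4 and Syt10, with log2 differences of -0.60 to -0.16.

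Some calls appeared under other choices. Without SMRT-KO replicate 1, 5 of the 40 genes were called (Syt6, Syt12, Rph3a, Rims3 and Cplx1) among 697 of all genes, and without control replicate 3, 3 were (Syt2, Syt6 and Rims3) among 57. Tested only among genes with a mean of at least 5 TPM, Rims3, Syt12, Rph3a and Syt6 passed, each at an adjusted p of 0.0489, among 143 of all genes. Beside these values, 10 of 10 oligodendrocyte markers lay above control in SMRT-KO amygdala, 9 of them at an unadjusted p under 0.05, as did 8 of 9 striatal markers, 7 of them at such a p. Their part in the release gene values was not tested.

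The promoters of the 3 genes whose amygdala values lay highest above control in SMRT-KO on the log2 scale are shown, since NCoR1 and SMRT act through nuclear receptors, many of which bind the half-site AGGTCA. They were picked after their values were seen. The letters are the 250 bases before the RefSeq start site (GRCm38.p6), 5′ to 3′ on the gene's strand, for Syt2 at chr1:134646362-134646611 (+ strand), Syt6 at chr3:103574995-103575244 (+ strand) and Cplx3 at chr9:57606282-57606531 (- strand). Capitals mark the half-site, which reads TGACCT where it lies on the opposite strand.
Syt2: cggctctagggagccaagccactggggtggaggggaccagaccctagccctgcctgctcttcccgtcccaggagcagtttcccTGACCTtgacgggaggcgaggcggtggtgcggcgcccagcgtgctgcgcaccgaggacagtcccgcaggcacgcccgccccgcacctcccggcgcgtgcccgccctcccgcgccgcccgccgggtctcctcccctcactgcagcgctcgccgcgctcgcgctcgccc
Syt6: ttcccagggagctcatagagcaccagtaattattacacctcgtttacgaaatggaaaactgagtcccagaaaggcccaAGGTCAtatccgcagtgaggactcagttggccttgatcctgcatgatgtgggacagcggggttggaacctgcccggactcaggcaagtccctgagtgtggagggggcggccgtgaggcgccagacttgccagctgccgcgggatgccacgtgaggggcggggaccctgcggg
Cplx3: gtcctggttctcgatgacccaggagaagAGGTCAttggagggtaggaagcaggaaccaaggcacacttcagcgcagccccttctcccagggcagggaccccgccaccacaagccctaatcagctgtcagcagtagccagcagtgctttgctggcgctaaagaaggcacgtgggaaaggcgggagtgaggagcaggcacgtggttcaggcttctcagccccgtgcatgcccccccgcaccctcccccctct
Syt2 has 2 RefSeq windows and Syt6 has 3, and for each gene the first window that holds the half-site is shown. Not every window of these genes holds it. The half-site starts 167 bases before the start site in Syt2, on the opposite strand, 172 bases before it in Syt6 and 222 bases before it in Cplx3. RefSeq promoter windows of 250 bases before to 50 bases after the start site were found for 31 of the 40 genes. AGGTCA on either strand lay in any window of 5 of these genes (16.1%): Cplx3, Syngr1, Syt1, Syt2 and Syt6. Over all 27025 genes with a window the share was 18.1%. A direct repeat of AGGTCA with any 4 bases between both copies, on either strand, lay in 0 of the 31 and in 0.0148% of all genes. A match is a description of the letters only.

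In the NCoR1-KO amygdala against control none of the 40 genes passed the test. Those at an unadjusted p under 0.05 lay mostly on the higher side and came from several of the groups of release genes. Over all genes limma called 60 of 14606 (0.411%), 0.0137% higher and 0.397% lower in NCoR1-KO. At an unadjusted p under 0.05, 11 of the 40 differed (27.5%), 10 higher and 1 lower in NCoR1-KO, against 13.1% of all genes, 3.3% higher and 9.81% lower. The groups did not overlap for 7 of the 40, against 12.1% of all genes. Sv2a had the smallest p, with all 3 NCoR1-KO libraries above all 4 controls and a log2 difference of 0.16 ± 0.04 (adjusted p = 0.138). Syngr1, a vesicle membrane synaptogyrin, had 443, 438 and 472 TPM in NCoR1-KO, against 376, 404, 367 and 410 TPM in controls (log2 difference 0.21 ± 0.06). Rab3a, the main Rab3 GTPase of vesicles, had 1052, 988 and 1023 TPM in NCoR1-KO, against 900, 943, 914 and 931 TPM in controls (log2 difference 0.15 ± 0.04). Neither gene's groups overlapped. Rims3 had 46.2, 50.8 and 46.7 TPM in NCoR1-KO amygdala, also above every control, with a log2 difference of 0.24 ± 0.07. The others higher at an unadjusted p under 0.05 were Nsf, Slc17a6, Syn1, Syp, Syt5 and Syt13. Pclo, at -0.34 ± 0.10, was the 1 gene on the lower side at such a p. All 6 vesicle membrane genes lay above control in NCoR1-KO, by log2 differences with a median of 0.14, while the median was 0.06 over the 40 genes and -0.03 over all genes. Both knockouts are set against the same 4 controls, so their differences from control share those libraries. Beside these values, 10 of 11 pan-neuronal markers lay above control in NCoR1-KO amygdala, and 10 of 10 microglia, 10 of 10 oligodendrocyte and 9 of 10 astrocyte markers below it. Their part was not tested.

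In hippocampus no release gene passed the test between any pair of genotypes, nor did any other of the 14501 genes tested (0% in each of the 3 comparisons). The smallest limma adjusted p over the 40 genes was 0.998 for NCoR1-KO against control, 0.779 for SMRT-KO against control and 0.726 for NCoR1-KO against SMRT-KO. At an unadjusted p under 0.05, 0 of the 40 differed between NCoR1-KO and control, against 4.54% of all genes (1.88% higher, 2.65% lower). Between SMRT-KO and control 7 of the 40 did, 3 higher and 4 lower, against 5.61% of all genes (2.13% higher, 3.48% lower). Between NCoR1-KO and SMRT-KO 4 did, all lower in NCoR1-KO, against 6.59% of all genes (3.82% higher, 2.77% lower). The groups did not overlap for 3, 4 and 5 of the 40 in the same order of comparisons, against 8.09%, 4.78% and 11.4% of all genes. The medians of the 40 log2 differences were -0.03, 0.02 and -0.03, against 8.2e-05, -0.02 and 0.02 over all genes. Ncor1 and Snap25, though lower in every NCoR1-KO library than in every control, had an adjusted p of 0.79 in hippocampus, so differences of that size did not pass among these libraries.

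The hippocampus values with the smallest p in SMRT-KO against control were on synaptotagmins and Sv2c, the SV2 protein of basal ganglia and other subcortical terminals. Syt2 had 14.2, 17.1 and 15.2 TPM in SMRT-KO hippocampus, against 13.2, 11.6, 10.3 and 11.5 TPM in controls (log2 difference 0.38 ± 0.12). Syt10, a synaptotagmin of growth factor release in the olfactory bulb, had 7.98, 5.26 and 2.34 TPM in SMRT-KO, against 9.94, 12.5, 8.32 and 8.96 TPM in controls (log2 difference -0.92 ± 0.30). Syt5 had 115, 83 and 115 TPM in SMRT-KO, against 137, 152, 128 and 120 TPM in controls (log2 difference -0.37 ± 0.12). For these 3 genes the groups did not overlap. Syt11, a synaptotagmin that does not bind calcium, had 636, 671 and 655 TPM in SMRT-KO, against 558, 589, 608 and 625 TPM in controls, without overlap (log2 difference 0.14 ± 0.05). Sv2c had 7.13, 6.57 and 3.44 TPM in SMRT-KO, against 9.16, 19.5, 6.02 and 13.1 TPM in controls, with overlap (log2 difference -0.89 ± 0.33). Without SMRT-KO replicate 2 the log2 differences were 0.31 for Syt2, -0.98 for Syt10, -0.21 for Syt5, 0.12 for Syt11 and -1.0 for Sv2c, and none passed.

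In NCoR1-KO against control hippocampus the 5 genes of smallest p were Syt6, Syt10, Rab3c, Rab3b and Syt5, all lower in NCoR1-KO. Syt6 had 5.16, 7.13 and 5.04 TPM in NCoR1-KO, against 6.34, 10.1, 7.42 and 7.18 TPM in controls. Syt10 had 4.65, 6.76 and 7.58 TPM in NCoR1-KO hippocampus, each below all controls, with a log2 difference of -0.58 ± 0.30. Rab3b and Rab3c encode Rab3 proteins of lower abundance than Rab3a. Rab3b had 26.2, 31.5 and 25.5 TPM in NCoR1-KO, against 35.6, 38.2, 35.6 and 30.9 TPM in controls, and Rab3c had 167, 222 and 185 TPM in NCoR1-KO, against 219, 257, 224 and 187 TPM in controls. Syt5 had 119, 120 and 108 TPM in NCoR1-KO hippocampus, against 120 to 152 TPM in controls. The groups overlapped or touched for all but Syt10. Control replicate 2 held the highest value of the 10 hippocampus libraries for all 5 genes, and for 9 of the 40 in all. Without it the log2 differences were -0.25 for Syt6, -0.48 for Syt10, -0.14 for Rab3c, -0.29 for Rab3b and -0.14 for Syt5. The same library had the highest sums of striatal markers (552 TPM, against 202 to 251 TPM in the other 9), hypothalamic markers (948 TPM, against 351 to 838 TPM) and GABAergic neuron markers (1685 TPM, against 954 to 1458 TPM). The excitatory neuron markers summed to 5386 to 6123 TPM in NCoR1-KO hippocampus and 4747 to 5271 TPM in controls. Their part in these values was not tested.

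Between NCoR1-KO and SMRT-KO hippocampus the smallest p belonged to Rims2, a RIM scaffold, with 56.1, 57.7 and 53.5 TPM in NCoR1-KO libraries and 72.6, 94.4 and 60.7 TPM in SMRT-KO. The log2 difference was -0.42 ± 0.14, and -0.25 without SMRT-KO replicate 2, its highest library. Syt2, Syngr3 and Cplx1 followed, lower in NCoR1-KO by log2 differences of -0.32 ± 0.12, -0.23 ± 0.10 and -0.30 ± 0.13. Syngr3, a synaptogyrin, had 164, 164 and 152 TPM in NCoR1-KO libraries and 177, 176 and 210 TPM in SMRT-KO, without overlap. Cplx1 had 489, 619 and 463 TPM in NCoR1-KO libraries and 554, 620 and 760 TPM in SMRT-KO, with overlap. Syn3, the least abundant synapsin, lay the other way, with 23.1, 19.5 and 25.2 TPM in NCoR1-KO libraries and 20.9, 18.5 and 11.3 TPM in SMRT-KO. Without SMRT-KO replicate 2 the log2 differences were -0.24 for Syt2, -0.27 for Syngr3, -0.32 for Cplx1 and 0.52 for Syn3, and none passed.

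**Figure D2:**
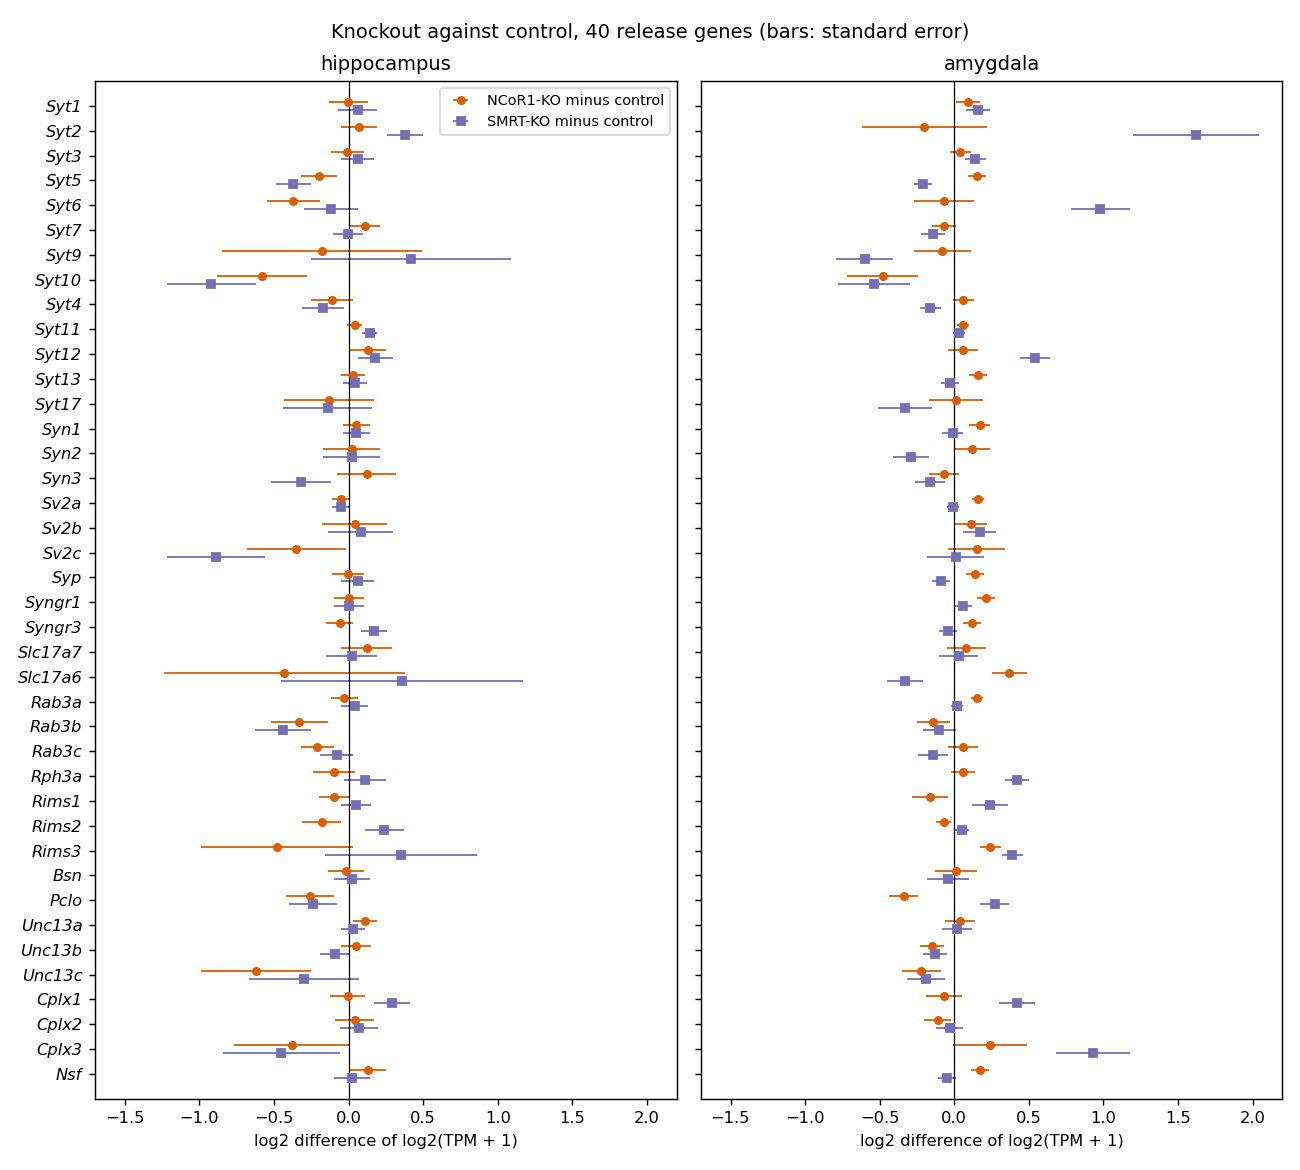
Log2 difference from control (horizontal axes, points) with its standard error (bars) for the 40 release genes, of NCoR1-KO and SMRT-KO in hippocampus (left) and amygdala (right). The SMRT-KO points of Syt2 (1.62), Syt6 (0.98) and Cplx3 (0.93) in amygdala lie farthest to the right, and Slc17a6, Syt9 and Rims3 have the widest bars in hippocampus.

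For these 3 genes SMRT-KO replicate 2 lay far from the other hippocampus libraries. Slc17a6 had 11.6, 122 and 5.14 TPM in SMRT-KO hippocampus, against 9, 12 and 13.2 TPM in NCoR1-KO and 17, 21.4, 9.27 and 17 TPM in controls. Rims3 had 14.4, 74.7 and 14.9 TPM in SMRT-KO, against 13.7, 16 and 12.2 TPM in NCoR1-KO and 16.1, 32.2, 13.7 and 21.3 TPM in controls. Syt9, a fast calcium sensor of limbic and striatal neurons, had 3.56, 35.6 and 3.43 TPM in SMRT-KO, against 4.05, 4.41 and 6.82 TPM in NCoR1-KO and 5.12, 11.5, 5.23 and 3.43 TPM in controls. In each case 1 SMRT-KO library was far above all others and the other 2 lay at or below most controls. The log2 differences of SMRT-KO from control were 0.36 for Slc17a6, 0.35 for Rims3 and 0.42 for Syt9, and without replicate 2 they turned to -0.91, -0.41 and -0.59, none of them past the test. The thalamus markers were high in the same library. Their part in these values was not tested.

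**Figure D3:**
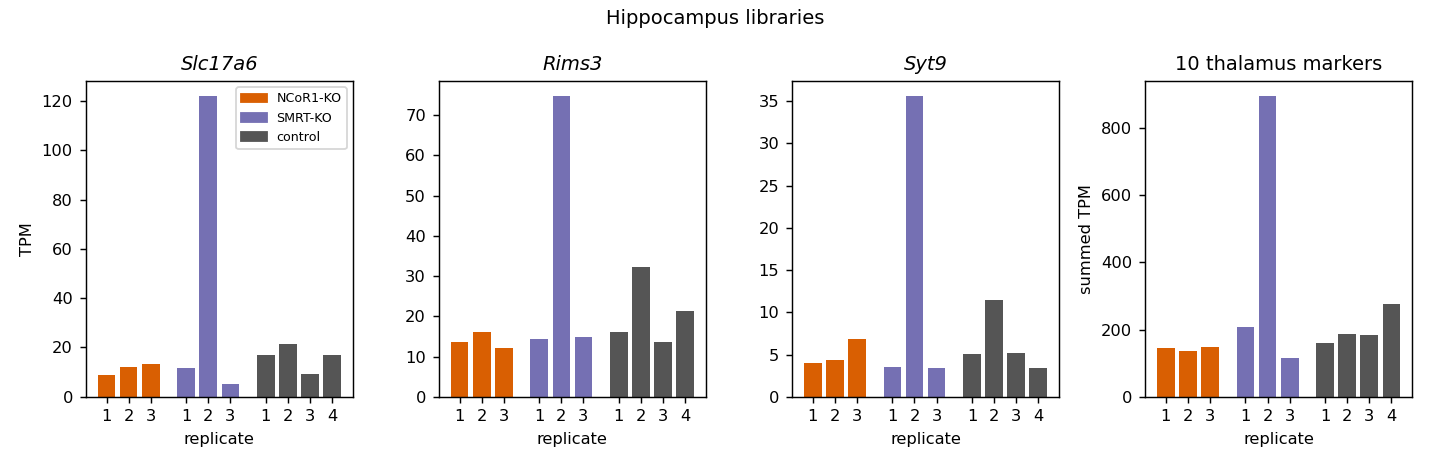
TPM of Slc17a6, Rims3 and Syt9 and the summed TPM of 10 thalamus markers (vertical axes, from 0) in each of the 10 hippocampus libraries, with 1 bar per library in groups NCoR1-KO, SMRT-KO and control. In all 4 panels SMRT-KO replicate 2 is the highest bar, at 122, 74.7, 35.6 and 894 TPM.

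Whether a knockout's difference from control differed between hippocampus and amygdala was tested in 1 fit of all 20 libraries. No gene of 14210 (0%) and none of the 40 passed for either knockout. At an unadjusted p under 0.05 there were 2 of the 40 for NCoR1-KO, against 3.67% of all genes, and 6 for SMRT-KO, against 8.85%. All 8 values were negative, where 1.96% of all genes were lower at such a p for NCoR1-KO and 4.83% for SMRT-KO. For NCoR1-KO, Sv2a and Syt5 had effects lower in hippocampus than in amygdala, by log2 differences of -0.21 ± 0.07 and -0.36 ± 0.14 (adjusted p = 0.998 for both). Rab3a, Syngr1 and Rab3c followed, at -0.18 ± 0.10, -0.21 ± 0.12 and -0.28 ± 0.16. For SMRT-KO the 5 smallest p belonged to Syt6, Cplx3, Syt2, Pclo and Syt12. Syt6 differed by -1.10 ± 0.29 (adjusted p = 0.331), its log2 difference from control being -0.12 in hippocampus and 0.98 in amygdala. Cplx3 differed by -1.38 ± 0.49, Syt2 by -1.24 ± 0.48, Pclo by -0.51 ± 0.20 and Syt12 by -0.36 ± 0.17. Without hippocampus SMRT-KO replicate 2 these 5 values were -0.94, -1.52, -1.31, -0.33 and -0.20.

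More release genes differed between the tissues than between genotypes. In controls 23 of the 40 genes differed between hippocampus and amygdala (57.5%), 3 higher and 20 lower in hippocampus, against 32.5% of all 14210 genes, 13.2% higher and 19.3% lower. The tissues did not overlap for 23 of the 40, against 32.6% of all genes. The median log2 difference of the 40 was -0.19, against -0.03 over all genes. Beside this, 10 of 11 pan-neuronal markers lay lower in hippocampus and 10 of 10 oligodendrocyte markers higher (10527 to 19351 TPM summed in hippocampus, 2677 to 9329 TPM in amygdala). Excitatory neuron markers summed higher in control hippocampus, at 4747 to 5271 TPM against 3423 to 4444 TPM in control amygdala. GABAergic neuron markers summed lower there, at 1288 to 1685 TPM against 1777 to 2090 TPM. Striatal markers (202 to 552 TPM against 488 to 1334 TPM) and hypothalamic markers (477 to 948 TPM against 696 to 1114 TPM) leaned lower there with overlap. Their part was not tested.

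Unc13c had the largest log2 difference of the 40 genes in controls. It had 7.54, 13.1, 5.88 and 8.67 TPM in control hippocampus and 45.8, 34.8, 51.1 and 34.7 TPM in control amygdala, a log2 difference of -2.15 ± 0.27 (n = 4 each, limma adjusted p = 1.29e-05). Every amygdala library lay above every hippocampus library. Slc17a6 averaged 16.2 ± 5.05 TPM in hippocampus and 50.4 ± 9.03 TPM in amygdala (log2 difference -1.62 ± 0.57, adjusted p = 0.0377), and Syt9 averaged 6.32 ± 3.54 TPM in hippocampus and 19.9 ± 4.9 TPM in amygdala (-1.59 ± 0.49, adjusted p = 0.0182). Neither gene overlapped between tissues. The call on Slc17a6 was lost without 1 library in 7 of 20 cases and that on Rims3 in 13 of 20. The spread in this test comes from all 20 libraries, hippocampus SMRT-KO replicate 2 among them. Without that library the control log2 differences were -1.62 for Slc17a6, -0.99 for Rims3 and -1.59 for Syt9 (limma adjusted p = 2.95e-05, 2.57e-04 and 1.18e-04). Cplx3 had 2, 6.78, 2.3 and 0.93 TPM in control hippocampus and 11.6, 7.49, 5.82 and 15.6 TPM in control amygdala, with 1 hippocampus library above 1 amygdala library (-1.59 ± 0.32, adjusted p = 0.00106).

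Lower in hippocampus too were Syt10, at 9.93 ± 1.83 TPM against 24.5 ± 2.21 TPM in amygdala, Rims3, at 20.8 ± 8.25 TPM against 40.4 ± 3.1 TPM, and Sv2c, at 12 ± 5.82 TPM against 22.6 ± 7.54 TPM (SD, n = 4 each). Their log2 differences were -1.24, -0.99 and -0.93. Syt4, a synaptotagmin of dense-core vesicles, had 116, 142, 115 and 95.2 TPM in control hippocampus and 198, 241, 218 and 219 TPM in control amygdala, and had the smallest adjusted p of the 40 genes (log2 difference -0.91 ± 0.11, adjusted p = 6.29e-06). Rab3b and Syt6 followed in size, at -0.79 ± 0.15 and -0.72 ± 0.19. The 3 genes higher in hippocampus were Syt12, at 29.3 ± 1.69 TPM in hippocampus and 19.4 ± 0.608 TPM in amygdala (log2 difference 0.57 ± 0.11), Syt3 at 0.41 ± 0.08 and Nsf at 0.35 ± 0.09. Of the 5 synaptotagmins outside the calcium-sensing group all 5 differed, of the 6 vesicle membrane genes 5 did, all lower in hippocampus, and of the 3 synapsins none did.

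Within the knockouts many of the same genes were called. In NCoR1-KO 26 of the 40 genes differed between tissues (37.6% of all genes did) and in SMRT-KO 17 (29.6%). The same 15 genes were called in NCoR1-KO, SMRT-KO and control, with the same sign each time: Syt3 and Nsf higher in hippocampus, and Syt4, Syt5, Syt6, Syt10, Sv2a, Sv2c, Syngr1, Syngr3, Rab3b, Rab3c, Rims1, Unc13c and Cplx3 lower. In 13 genes no genotype gave a call, Syt1, Slc17a7 and all 3 synapsins among them. Cplx3 had 1.16, 2.15 and 1.47 TPM in SMRT-KO hippocampus and 18.4, 19.5 and 18.9 TPM in SMRT-KO amygdala, a log2 difference of -2.96 ± 0.37. Slc17a6, Syt9 and Rims3 had differences of -0.93, -0.57 and -1.03 in SMRT-KO that did not pass, and without hippocampus SMRT-KO replicate 2 they were -2.19, -1.58 and -1.79 (adjusted p = 2.22e-05, 0.00141 and 1.21e-05). For Slc17a6 the mean of TPM in SMRT-KO ran the other way, 46.1 ± 65.4 TPM in hippocampus and 39.4 ± 3.08 TPM in amygdala, with 2 of 3 hippocampus libraries below all amygdala libraries.

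**Figure D4:**
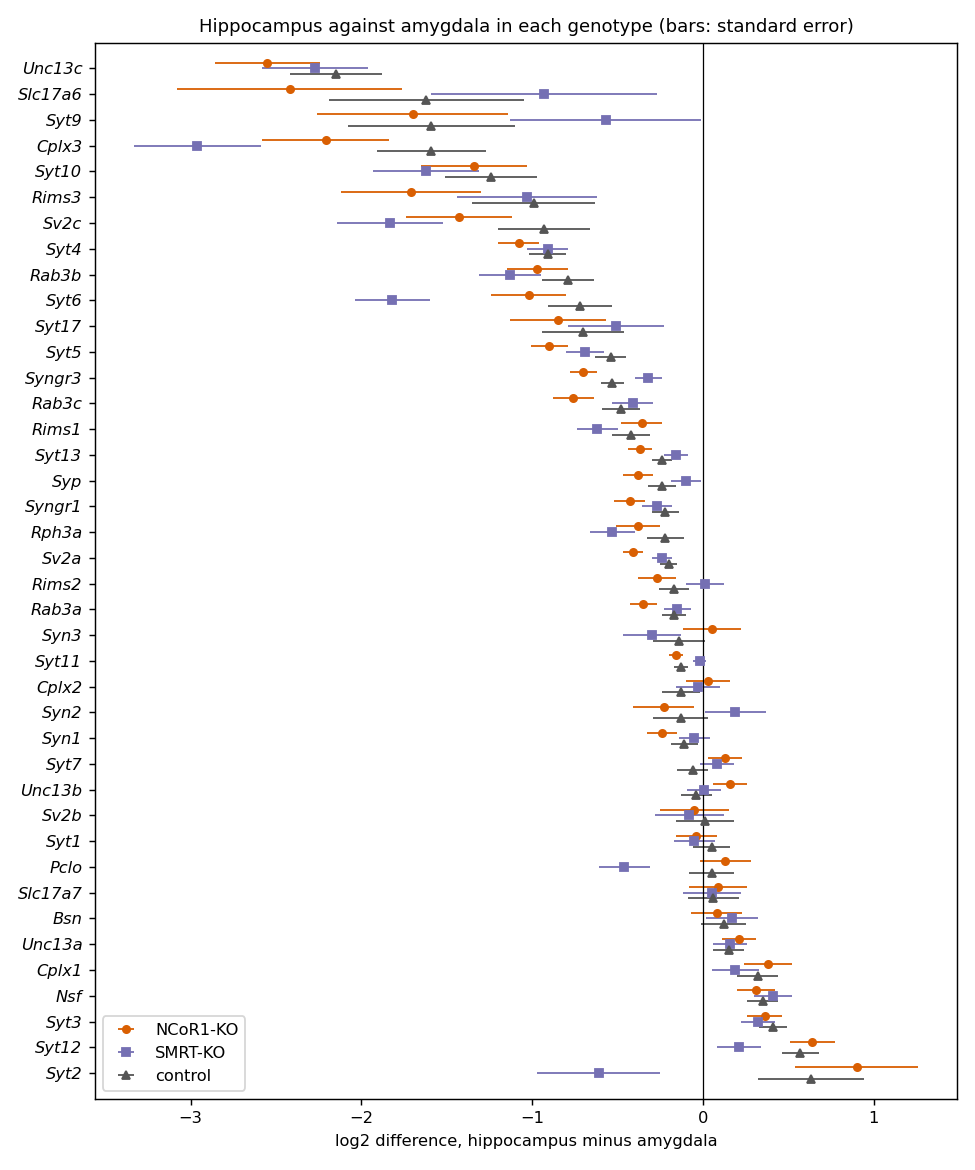
Log2 difference of hippocampus minus amygdala (horizontal axis, points) with its standard error (bars) for the 40 release genes in NCoR1-KO, SMRT-KO and control, ordered by the control value. Unc13c lies below -2 in all 3 genotypes (control -2.15), and for Slc17a6 and Syt9 the SMRT-KO points (-0.93 and -0.57) lie to the right of the others.

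Other genes of the release pathway were taken from lists of general knowledge. Their counts stand beside 11.5% of all genes called between the amygdala knockouts (5.03% higher and 6.46% lower in NCoR1-KO) and 32.5% between the control tissues (13.2% higher and 19.3% lower in hippocampus). The core fusion list (SNAREs, Munc18 and SNAP adaptors) had 9 genes. Of its genes other than Snap25, the holder of the Cre driver, none passed against control in either knockout and tissue. In hippocampus Snap25 did not pass either. Between NCoR1-KO and SMRT-KO amygdala 1 of the 9 was called, Napb, which encodes an adaptor that loads NSF onto SNAREs, at 517 ± 47.4 TPM in NCoR1-KO libraries and 368 ± 33.8 TPM in SMRT-KO (log2 difference 0.49 ± 0.09, adjusted p = 0.0108). Of the 12 genes of the vesicle proton pump, which powers transmitter loading, all 12 lay higher in NCoR1-KO than in SMRT-KO amygdala and 4 were called, with Atp6v1g2 at 823 ± 11 TPM in NCoR1-KO libraries and 688 ± 4.55 TPM in SMRT-KO. Of 13 endocytosis genes 2 were called, Ap2a1 higher and Picalm lower in NCoR1-KO. Of 10 tested vesicle membrane and transport genes 2 were called, Svop higher and Slc17a8 (VGLUT3) lower. Of 19 tested regulators 1 was called, Stxbp5l, which encodes a tomosyn that inhibits SNARE assembly, at 37.4 ± 3.19 TPM in NCoR1-KO libraries and 56.5 ± 1.82 TPM in SMRT-KO (log2 difference -0.59 ± 0.08, adjusted p = 0.00516). Between control hippocampus and amygdala the calls were 4 of 9 fusion core genes, 5 of 12 pump genes (all lower in hippocampus), 4 of 13 endocytosis genes, 2 of 9 vesicle membrane genes and 10 of 19 regulators. Stx1a, a presynaptic syntaxin, had 112 ± 14.8 TPM in control hippocampus and 291 ± 48.3 TPM in control amygdala (log2 difference -1.37 ± 0.14), and Doc2a, a calcium sensor of spontaneous release, 13 ± 4.38 TPM in hippocampus and 48.6 ± 5.23 TPM in amygdala (-1.86 ± 0.15).

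The 40 genes lie on 17 chromosomes in the mouse annotation of GRCm38, so they do not form a cluster. For 3 of them, Syt1, Syn2 and Sv2c, another gene overlaps on the same strand, and for 18 a gene overlaps on the opposite strand. The sources used here do not say whether the authors' counting used strand, so reads of these pairs may not be told apart. Of the 10 genes that differed between the knockouts in amygdala, Syt2 (with Ppp1r12b), Syt6, Syt12, Syp and Pclo are among the 18.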

How the data were processed

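The deposited tables, 1 per tissue, hold gene-level TPM values that the authors made. Per the submitters' processing notes RSEM 1.3.3, STAR 2.5.3a, fastp 0.21.0 and bcl2fastq were used with build mm10, named without roles; per the labels' protocols the libraries were made with a stranded TruSeq mRNA kit. The sources used here do not give the annotation or the strand setting. TPM keeps no depth, so depth per library is unknown and no counting interval is given.

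Tests used limma 3.58.1 under R 4.3.3 (moderated variances with an intensity trend) on log2(TPM + 1). Genes with at least 1 TPM in 3 of 10 libraries of a tissue were tested (14501 in hippocampus, 14606 in amygdala, 14210 in both). Each tissue was fitted with its 3 genotypes; tissue differences came from a joint fit of 20 libraries with 6 groups, taken as unpaired. P-values were adjusted by Benjamini-Hochberg over all tested genes, with a threshold of 0.05. Fold changes on this scale understate low genes. Means are given with SD, differences with the standard error. The script was tested on simulated data. Alternatives covered the pseudocount, low-value filters, scaling, the variance trend, the libraries in the fit, a replicate block and left-out libraries.

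Members and lists were chosen with earlier results of these data known. Genes were named if they passed between genotypes, or were among up to 5 of smallest p where fewer passed. Those with the 10 largest tissue differences of controls were named too. Many are given with every library's values, and some with a mean and SD or a log2 difference alone. The transcript targeted in SMRT-KO is not reported here. Promoter sequences are from RefSeq (GRCm38.p6), gene positions from GENCODE; Python 3.11.15 and matplotlib 3.10.9 were used for them and the figures.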

Additional observations from a re-analysis of the deposited data

Results flagged for a closer look

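In 1 of 80 groups of 4 control libraries, which is 40 genes in 2 tissues, 1 library stood apart by Dixon's test on the log2 scale. Syt17, a synaptotagmin that does not sense calcium, lay at 38 TPM in hippocampus control replicate 4 and at 65.7 to 70.5 TPM in the other 3 control libraries of that tissue. The gap was 0.886 of the group's range, above the 95% critical value for 4 samples. Chance alone marks about 1 in 20 such groups.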

How the results depend on the processing

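The differences of Slc17a6, Rims3 and Syt9 in hippocampus changed sign with the libraries kept, and no other gene recomputed by name changed direction under the settings run. For SMRT-KO against control, leaving out 1 library gave log2 differences of -0.91 to 1.25 for Slc17a6, -0.41 to 0.74 for Rims3 and -0.59 to 0.93 for Syt9, each lowest without SMRT-KO replicate 2. They were -0.39, -0.43 and -0.57 without SMRT-KO replicates 2 and 3 together, and -0.91, -0.41 and -0.59 without NCoR1-KO replicate 3 and SMRT-KO replicate 2 together. For NCoR1-KO against SMRT-KO, leaving out 1 library gave -1.68 to 0.48 for Slc17a6 and -1.11 to 0.41 for Syt9. Syt9 was at 0.39 without SMRT-KO replicates 2 and 3. Without NCoR1-KO replicate 3 and SMRT-KO replicate 2 the values were 0.37 for Slc17a6, 0.02 for Rims3 and 0.22 for Syt9. For NCoR1-KO against control Syt9 lay at -0.39 to 0.11, highest without control replicate 2. In hippocampus, where no gene was called, 1 gene was called for NCoR1-KO against control after quantile normalization, with only the groups compared, or without SMRT-KO replicates 2 and 3 together; 1 for SMRT-KO against control after quantile normalization or without those 2 libraries; and 5 for NCoR1-KO against SMRT-KO with only the groups compared. Leaving out 1 library gave 0 to 1 genes in each of these 3. In amygdala, NCoR1-KO against control called 60 genes, and 16 with no filter, 17 with no variance trend and 4 with only the groups compared (0 to 126 without 1 library, with 0 release genes each time). SMRT-KO against control called 16 genes and 0 release genes. It called 143 genes and 4 release genes among genes at a mean of 5 TPM, and 2 genes with no filter, 5 with Rn45s left out, 3 with no variance trend and 2 with only the groups compared (0 to 697 genes and 0 to 5 release genes without 1 library). NCoR1-KO against SMRT-KO called 10 release genes, 6 with no variance trend, and 1 to 13 without 1 library (246 to 2218 of all genes). The SMRT-KO tissue difference fell to 11 release genes and 2069 genes with only the groups compared, which uses fewer libraries. The SMRT-KO effect by tissue gave 1 gene with no filter and 0 to 18 without 1 library, 18 of them without hippocampus SMRT-KO replicate 1. The cause was not tested where none is named.

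With the replicate number as a block, NCoR1-KO against SMRT-KO in amygdala gave 5 release genes and 854 genes (Syt2, Syt12, Sv2a, Syp and Cplx1 did not pass, at adjusted p 0.0631 to 0.0825), SMRT-KO against control in amygdala gave 4 genes, and the tissue comparisons gave 24 release genes in control, 27 in NCoR1-KO and 16 in SMRT-KO. Numbers were taken to pair libraries where every same-numbered pair deviated together with r over 0.1. Within amygdala 2 of 9 pairs did, and none of the 3 between NCoR1-KO and SMRT-KO. Across tissues r was 0.00081 to 0.48 and over 0.1 in 7 of 10 pairs, and 8 of 10 libraries correlated best with their own number, a hint from the data and not the design. All 3 pairs of NCoR1-KO met the bar (0.48, 0.13 and 0.28), where the block changed no call of a named gene. Without hippocampus NCoR1-KO replicate 3 and SMRT-KO replicate 2 together, a setting chosen after seeing the data, hippocampus gave 0 release genes. Depth is unknown and limits low genes such as Cplx3 in hippocampus.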
